A study of Mus musculus with 4 samples.

Results

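The genes described here encode the enzymes and transporters of glycolysis and a set of transcripts that low oxygen is known to induce. The list holds 38 gene symbols, of which 36 were measured among the 20252 genes on the arrays. A gene counted as measured where the probe-to-gene annotation gave at least 1 transcript cluster (the array's unit of summary) that symbol alone, and the cluster with the highest mean signal over the 4 arrays stood for it. Gpi1 and Eno1 had no such cluster and were not analysed here. Of the 36, 22 belong to glucose and lactate transport, glycolytic enzymes and the control of flux, and 14 to the response to hypoxia.

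Expression was measured in neuroretina dissected from CD-1 mouse embryos at embryonic day 13.5, with 2 arrays for each of 2 genotypes. The control embryos carried loxP-flanked Lhx2 alleles and no Cre transgene (Lhx2 lox/lox). The other embryos carried the same alleles with Chx10-Cre, a transgene that expresses Cre recombinase in retinal progenitor cells (Chx10-Cre;Lhx2 lox/lox, called the Cre arrays here). Lhx2 encodes a LIM-homeodomain transcription factor of the eye field, and the series title sets out to find the genes it regulates in early retinal progenitors. Only the Cre embryos carried the transgene, so effects of the transgene and of the Lhx2 deletion cannot be told apart, and cells outside the Chx10-expressing lineage keep their Lhx2 alleles. The labels do not give the source of each replicate (an animal, a litter or a pool), and every p-value here therefore reflects array-to-array spread that may be purely technical.

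Glycolysis turns glucose, taken up by Slc2a family transporters, into pyruvate, which lactate dehydrogenase can reduce to lactate for export by Slc16a family transporters. Proliferating retinal progenitors are known for high glycolysis even where oxygen is present. When oxygen is low, prolyl hydroxylases stop marking the transcription factor HIF-1 alpha for degradation, and HIF binds a short core sequence near many glycolytic genes and near genes for vessel growth, mitophagy and matrix maturation.

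The deposited array medians followed the replicate number (2.97 and 2.85 log2 units in the replicate 1 arrays, control and Cre, and 3.53 and 3.46 in the replicate 2 arrays), and all signals given here are log2 values after quantile normalization across arrays. Lhx2 itself stood at 6.52 and 6.29 in control and at 6.60 and 6.30 in Cre arrays (difference 0.05, adjusted p = 0.973). Whether its probes lie in the deleted exons is not known here, so Lhx2 does not check the genotype labels. Retinal progenitor markers (9 of 10 measured) had a mean signal of 8.82 and 8.70 in the control and 7.02 and 6.92 in the Cre arrays. Periocular mesenchyme markers (11 of 12 measured) stood at 4.23 and 4.2 in the control arrays, at 7.60 in Cre replicate 1 and at 5.24 in Cre replicate 2. Pigment epithelium markers (9 of 9 measured) stood at 3.89 and 4.58 against 5.96 and 4.86. The Cre replicate 1 array thus stands apart in genes of tissue around the retina, and the main differences are also given within each replicate number. In bulk tissue, fewer cells of a type and less RNA per cell cannot be told apart.

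Transcripts of a glucose transporter, a hexokinase, a lactate exporter and a hypoxia effector had lower signals in the Cre arrays, while most other members differed by less than 1.5-fold. Ndrg1, a stress-responsive differentiation gene induced by hypoxia, was 4.06-fold lower. Slc16a3, the lactate exporter MCT4, was 2.10-fold lower, Slc2a1, the glucose transporter GLUT1, 2.06-fold lower, and Hk2, the hexokinase induced in highly glycolytic cells, 1.73-fold lower. Differences of 1.5-fold or more in the same direction within both replicate numbers were seen in 4 of 36 members, against 5.85% of all 20252 genes. All 4 were lower in the Cre arrays. Lower by that rule were 2.97% of all genes and 5.15% of the 10126 genes at or above the median signal. No member was at least 1.5-fold higher within both, against 2.87% of all genes.

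None of the 36 members passed the test across all genes. Limma called 0 of 20252 genes at an adjusted p of 0.05 (0%), and 5 of 36 members had an unadjusted p under 0.05, against 11.2% of all genes (2263). At an adjusted p of 0.10 it called 73 genes (0.36%) and again 0 members. On the deposited values without further normalization limma called 415 genes (2.05%), of which 158 were lower (0.78%), and Ndrg1 was the only member among them (adjusted p = 4.07e-06). That fit takes a gene's error from all genes of like signal and not from its own replicates. The words higher and lower are therefore used of measured values, and do not stand for a call.

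**Figure D1:**
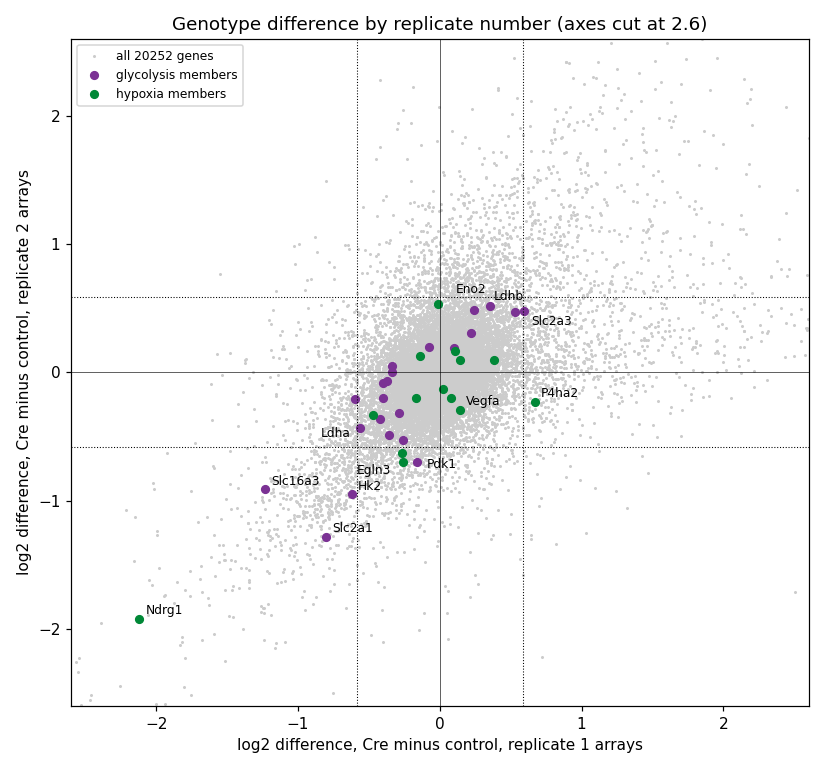
Each point is a gene, with the log2 difference (Cre minus control) within the replicate 1 arrays on the x axis and within the replicate 2 arrays on the y axis. Grey points are all 20252 genes, coloured points are the 36 members and dotted lines mark 1.5-fold, with genes beyond the axes not drawn. Ndrg1, Slc2a1, Slc16a3 and Hk2 lie past the lines at the lower left, and no member lies past them at the upper right.

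HIF is known to bind the core letters ACGTG or GCGTG, so the 250 bases before the start of 5 members are shown with that core in capitals on either strand (as CACGT or CACGC where it lies on the other strand). Slc2a1, Slc16a3 and Hk2 are shown because they were lower within both replicate numbers, Ldha because 1 of its transcript clusters was, and Eno2 as a glycolytic gene that was not lower. The sequences are RefSeq's for build GRCm38.p6, written 5′ to 3′ on the gene's strand. They cover chr4:119108495-119108744 (plus strand) for Slc2a1, chr11:120948817-120949066 (plus strand) for Slc16a3, chr6:82774455-82774704 (minus strand) for Hk2, chr7:46845554-46845803 (plus strand) for Ldha and chr6:124769674-124769923 (minus strand) for Eno2, each directly upstream of the most 5′ start listed.
Slc2a1: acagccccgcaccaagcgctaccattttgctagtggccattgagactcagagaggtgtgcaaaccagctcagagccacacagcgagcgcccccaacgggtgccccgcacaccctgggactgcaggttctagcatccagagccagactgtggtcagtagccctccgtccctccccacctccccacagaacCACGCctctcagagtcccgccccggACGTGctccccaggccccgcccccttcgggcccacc
Slc16a3: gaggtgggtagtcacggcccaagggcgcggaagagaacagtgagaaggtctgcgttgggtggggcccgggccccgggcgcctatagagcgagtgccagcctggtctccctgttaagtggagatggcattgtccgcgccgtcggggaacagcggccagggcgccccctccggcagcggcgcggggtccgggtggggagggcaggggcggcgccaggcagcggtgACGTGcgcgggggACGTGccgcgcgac
Hk2: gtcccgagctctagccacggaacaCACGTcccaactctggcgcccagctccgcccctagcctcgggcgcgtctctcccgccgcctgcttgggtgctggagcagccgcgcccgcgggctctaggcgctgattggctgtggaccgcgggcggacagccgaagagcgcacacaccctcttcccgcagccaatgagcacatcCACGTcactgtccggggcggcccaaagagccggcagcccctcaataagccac
Ldha: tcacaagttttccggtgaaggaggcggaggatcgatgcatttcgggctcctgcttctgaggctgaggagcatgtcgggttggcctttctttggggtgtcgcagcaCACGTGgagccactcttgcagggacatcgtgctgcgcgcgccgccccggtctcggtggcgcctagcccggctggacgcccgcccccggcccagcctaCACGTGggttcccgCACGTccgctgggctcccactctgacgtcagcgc
Eno2: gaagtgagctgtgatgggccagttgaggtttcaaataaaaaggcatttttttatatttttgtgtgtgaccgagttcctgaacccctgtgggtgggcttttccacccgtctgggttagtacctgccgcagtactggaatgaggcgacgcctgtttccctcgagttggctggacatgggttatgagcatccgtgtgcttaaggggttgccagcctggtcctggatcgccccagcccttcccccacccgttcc
Slc2a1, Slc16a3 and Hk2 each held 2 matches and Ldha held 5 match starts, including CACGTG, a palindrome that reads as the core on both strands and is also the E-box bound by Myc. Eno2 held 0 in this window. Counted from the gene's start, the matches of Slc16a3 began at -27 and -14, and those of Slc2a1 at -61 and -36. Of the 36 measured members 33 had an entry (all but Ndrg1, Slc2a3 and Bnip3l), and 26 of these 33 (78.8%) held the core in this window, against 38.6% of 27025 genes. The share was 16 of 21 among glycolysis members and 10 of 12 among hypoxia members. Members were listed as glycolysis or hypoxia-induced genes, and base composition and signal were not matched, so these shares are not a test. A match is a description of these letters and not a bound site. Many members with the core, such as P4ha1 and Kdm3a, were not among the lower genes. Aldoa (-0.31), Tpi1 (-0.39) and Pkm (-0.22), glycolysis members with differences below 0, held 0 matches, and the rest of the glycolysis members below 0 held at least 1. Vegfa and Mxi1 among the hypoxia members held 0 too. Among glycolysis members with differences above 0, Pfkm held 2 matches, Ldhb, Aldoc and Pfkfb4 held 1 each, and Hk1 and Eno2 held 0. Eno2 therefore does not stand for the genes that were not lower.

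Transport differed most among the role groups, with a median difference of -0.72 over 4 genes (-0.53 within the replicate 1 and -0.72 within the replicate 2 arrays), against 0.00 over all genes. Slc2a1, which carries glucose into retinal cells and across vessel walls, had control signals of 9.06 and 8.92 and Cre signals of 8.26 and 7.64. Both Cre arrays lay below both controls. The log2 difference was -1.04 (SE 0.28, 95% interval -1.78 to -0.30, limma adjusted p = 0.288), or -0.80 and -1.28 by replicate number. Slc16a3 had signals of 7.23 and 6.46 in control and 5.99 and 5.55 in Cre arrays, again with no overlap. Its log2 difference was -1.07 (SE 0.33, 95% interval -1.94 to -0.20, adjusted p = 0.354), or -1.23 and -0.91 by replicate number, and control replicate 1 was the highest of the 4 arrays. Leaving that array out brought the Slc16a3 difference to -0.68.

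Slc2a3, the high-affinity glucose transporter GLUT3 typical of neurons, went the other way. Its signals were 4.92 and 4.99 in control and 5.51 and 5.48 in Cre arrays, the tightest replicates of the transporters. The difference was 0.54 (SE 0.16, 95% interval 0.11 to 0.96, adjusted p = 0.335), or 0.59 and 0.48 by replicate number. Slc16a1, the lactate and pyruvate transporter MCT1, had signals of 8.15 and 8.23 against 7.88 and 7.70, a difference of -0.40 (SE 0.20).

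**Figure D2:**
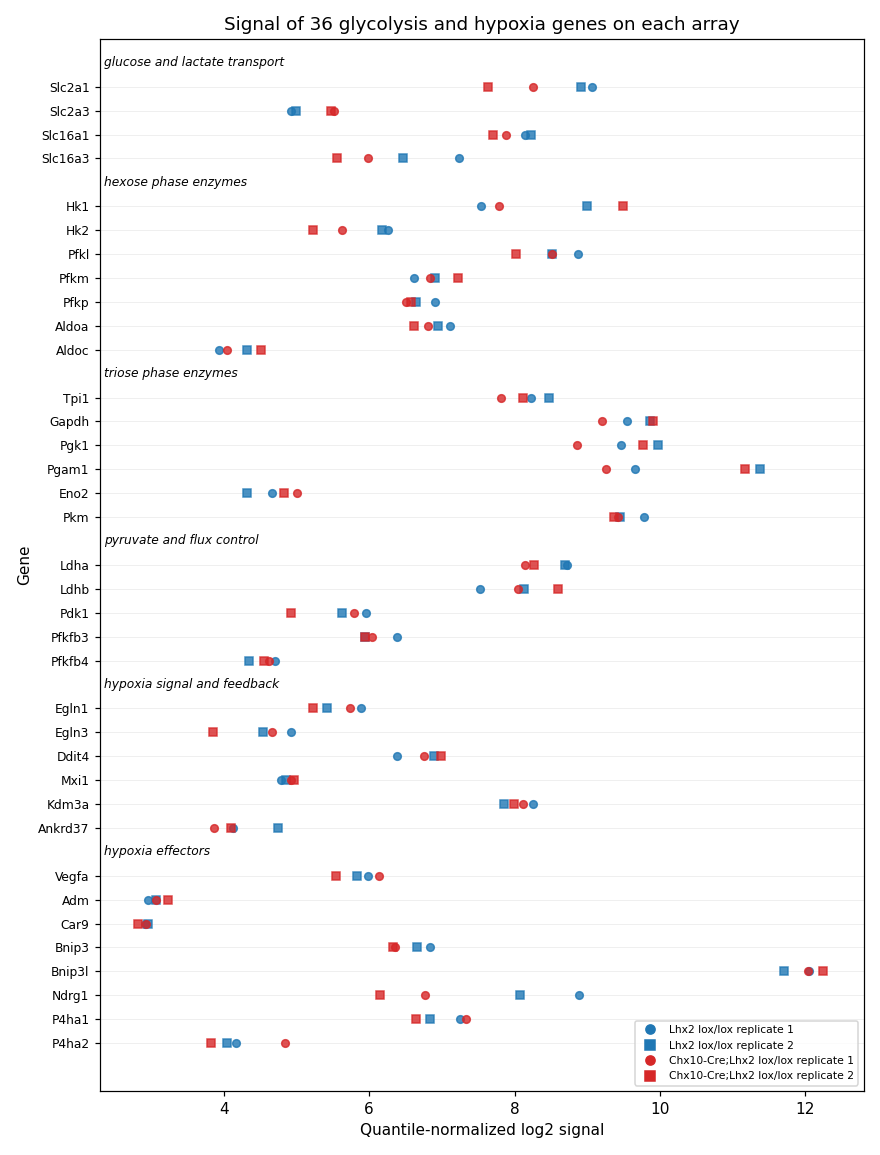
Quantile-normalized log2 signal (x axis) of the 36 measured genes (y axis, by role) on each of the 4 arrays, with Lhx2 lox/lox control arrays in blue, Chx10-Cre;Lhx2 lox/lox arrays in red, circles for replicate 1 and squares for replicate 2. Blue and red points do not overlap for Slc2a1, Slc16a3, Hk2 and Ndrg1, nor for other genes such as Slc2a3 and Ldha. For genes such as Hk1 and Pgam1 the replicate number separates the points more than the genotype does.

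Among the enzymes that act on 6-carbon sugars, Hk2, which commits glucose to the cell, had control signals of 6.26 and 6.18 and Cre signals of 5.63 and 5.23. The groups did not overlap, and the replicates of each lay closer together than the groups. The difference was -0.79 (SE 0.21, 95% interval -1.34 to -0.24, adjusted p = 0.284), or -0.62 and -0.95 by replicate number. The phosphofructokinase genes, which encode the main control point of the pathway, split by isoform. Pfkl (the liver form) and Pfkp (the platelet form) differed by -0.43 (SE 0.28) and -0.24 (SE 0.19), and Pfkm (the muscle form) by 0.26 (SE 0.23). The aldolase genes, whose products cleave fructose bisphosphate, showed differences of -0.31 (SE 0.19) for Aldoa and 0.15 (SE 0.24) for Aldoc, the form of neural tissue. Each of these 5 intervals included 0.

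In the clusters of highest mean signal, the enzymes that act on 3-carbon sugars each differed by less than 1.5-fold. Tpi1, which interconverts the triose phosphates, had signals of 8.23 and 8.47 against 7.81 and 8.11, a difference of -0.39 (SE 0.23). Gapdh, Pgk1, Pgam1 and Pkm, which carry the steps from glyceraldehyde phosphate to pyruvate, differed by -0.15, -0.41, -0.30 and -0.22, with intervals that all included 0 in these clusters. The fit has no term for the replicate number, so a shift between the numbers that both genotypes share widens these intervals. Among these genes that shift was largest for Pgam1, with 9.66 and 11.38 in control and 9.26 and 11.17 in Cre arrays. Eno2, the neuronal enolase, was the exception to the negative signs and had the smallest p of the 6. Its signals were 4.66 and 4.32 in the control and 5.01 and 4.83 in the Cre arrays, without overlap, and the difference was 0.43 (SE 0.20, 95% interval -0.09 to 0.95, adjusted p = 0.536).

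At the end of the pathway, Ldha, the lactate dehydrogenase subunit that favours lactate production, had control signals of 8.72 and 8.70 and Cre signals of 8.15 and 8.27. The groups did not overlap, and the difference was -0.50 (SE 0.20, 95% interval -1.01 to 0.02, adjusted p = 0.468). Ldhb, the subunit typical of oxidative tissue, had signals of 7.52 and 8.13 against 8.05 and 8.60. Its difference of 0.50 (SE 0.33) was opposite in sign, or 0.53 and 0.47 by replicate number, while the groups overlapped. It was 0.20 without control replicate 1, 0.22 without Cre replicate 2, 0.80 without control replicate 2 and 0.77 without Cre replicate 1. Pdk1, the kinase that closes pyruvate dehydrogenase under hypoxia, differed by -0.16 within the replicate 1 and by -0.70 within the replicate 2 arrays. Pfkfb3 and Pfkfb4, whose products set the level of an activator of phosphofructokinase, differed by -0.17 (SE 0.22) and 0.06 (SE 0.19).

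Glycolytic genes have many processed copies in the genome, and 10 of the 36 members had several transcript clusters. Cluster identifiers run along the chromosomes. Of 16777 genes with 1 cluster, 96.0% had at least 50% of their 20 nearest named identifiers from genes within 5 Mb of their own position in the RefSeq table. By this measure, added after the data were seen, 25 of the 26 members with 1 cluster lay in their own region, and the remaining one, Ndrg1, stood between its neighbouring genes Sla and St3gal1. In 7 of the 10 members with several clusters (Hk1, Pgk1, Pgam1, Pkm, Ldha, Ldhb and Bnip3l), the brightest cluster did not lie in the gene's own region while another one did. Gapdh had 3 clusters named for it alone, none of them in its own region, with differences from -0.75 to -0.15. Reads of near-identical copies by 1 probe set cannot be told apart, so levels of these genes are uncertain.

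The own-region cluster gave a larger difference for Ldha and a smaller one for Hk1. For Ldha its signals were 8.63 and 7.86 in control and 7.54 and 6.65 in Cre arrays, a 2.21-fold lower level with a log2 difference of -1.15 (SE 0.42, 95% interval -2.23 to -0.06, adjusted p = 0.412). The difference was -1.09 and -1.20 by replicate number, against -0.56 and -0.43 for the brightest cluster. For Pgam1 the own-region signals were 8.36 and 8.62 against 7.86 and 7.93, a difference of -0.59 (SE 0.20, 95% interval -1.11 to -0.08, limma adjusted p = 0.37). The brightest Pgam1 cluster had an SE of 0.87, which includes a shift between replicate numbers seen in both genotypes. Pkm differed by -0.45 and Pgk1 by -0.38 in their own-region clusters, both without overlap between the groups. For Hk1, the hexokinase of most tissues, the own-region signals were 5.47 and 5.17 against 5.33 and 5.29, a difference of -0.01 (SE 0.19, 95% interval -0.49 to 0.48). The brightest Hk1 cluster had a difference of 0.37 (SE 0.76), or 0.24 and 0.49 by replicate number. Its signal moved from 7.54 to 9.00 between the control replicates and from 7.78 to 9.49 between the Cre replicates. The fit has no term for the replicate number, so that shared shift enters the SE. Ldhb differed by 0.35 (SE 0.26) in its own region. With own-region clusters 5 of 36 members (Ldha added) were at least 1.5-fold lower within both replicate numbers, against 2.9% of all genes, and the glycolysis median was -0.34 in place of -0.27. With the brightest clusters that median was -0.34 within the replicate 1 and -0.14 within the replicate 2 arrays.

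**Figure D3:**
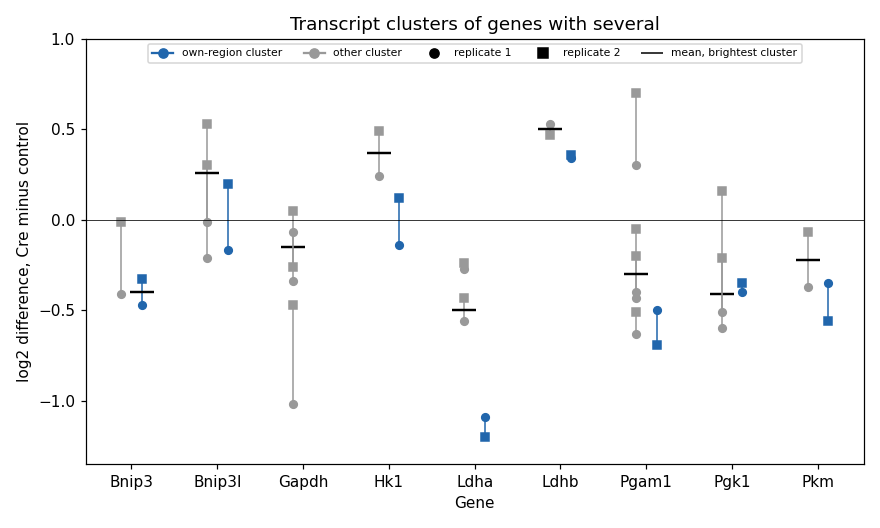
Log2 difference, Cre minus control (y axis), of every transcript cluster of the members with several clusters other than Mxi1 (x axis), with circles for the replicate 1 and squares for the replicate 2 arrays. Blue marks the cluster in the gene's own region, grey the others, and the black bar the mean difference of the brightest cluster. The own-region cluster of Ldha lies near -1.15, below its other clusters.

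Related genes on the same array were compared by the log2 signal of the first minus the second. The pairs and their order were chosen with results known, so neither the shared sign of the shifts nor a count of pairs without overlap carries weight. With own-region clusters, Slc2a1 minus Slc2a3 was 4.14 and 3.93 in control and 2.74 and 2.16 in Cre arrays, a shift of -1.58. Ldha minus Ldhb was 2.24 and 1.04 against 0.82 and -0.52, a shift of -1.5 (-1.0 with the brightest clusters). Hk2 minus Hk1 was 0.79 and 1.01 against 0.30 and -0.06, a shift of -0.78. Over all 11 pairs, the 2 genotypes did not overlap in 8 with own-region clusters, these 3 among them, and in 7 with the brightest clusters, where Hk2 minus Hk1 overlapped. Among all single genes, 20.9% were lower and 20.6% higher without overlap, and the share over all possible pairs was not computed. Pfkl minus Pfkm and Aldoa minus Aldoc shifted by -0.69 and -0.45 with overlap. The ratios describe these arrays only. With 2 arrays against 2, an exact two-sided permutation test cannot give a p below 0.333, so no pair was called.

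**Figure D4:**
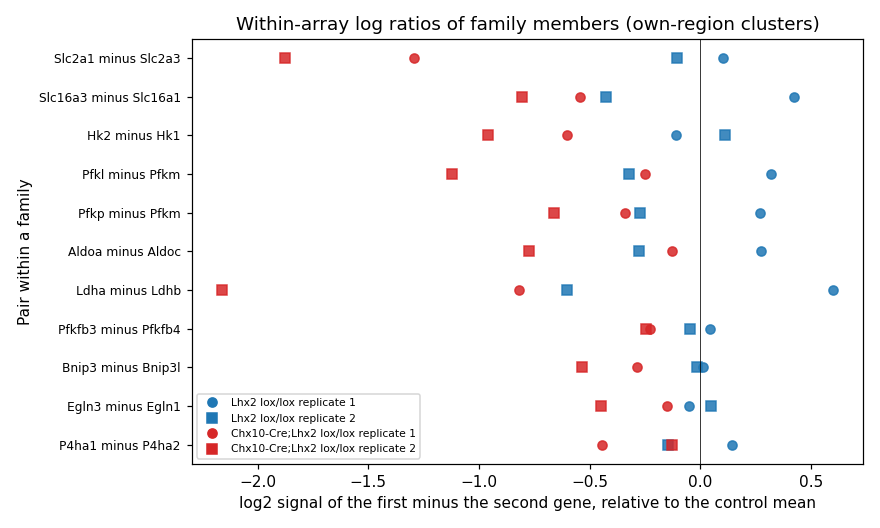
Within-array log2 ratio of 11 pairs of related genes (y axis), as the log2 signal of the first minus the second gene relative to the mean of the control arrays (x axis). Blue marks control and red Cre arrays, circles replicate 1 and squares replicate 2. Slc2a1 to Slc2a3 shows the widest gap between the genotypes, and P4ha1 to P4ha2 overlaps.

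The hypoxia genes showed no shared direction. Over 14 genes the median difference was -0.06 (0.00 within the replicate 1 and -0.20 within the replicate 2 arrays). Opposite signs by replicate number were seen in 6 of the 14 and, at a similar share, in 7464 of all 20252 genes. Ndrg1 had control signals of 8.88 and 8.08 and Cre signals of 6.77 and 6.15. Its groups lay more than 1 log2 unit apart, and its difference of -2.02 (SE 0.38, 95% interval -3.00 to -1.04, adjusted p = 0.181) was -2.12 and -1.92 by replicate number. Vegfa, the vessel growth factor and a standard HIF target, had signals of 5.99 and 5.83 against 6.13 and 5.54, a difference of -0.08 (SE 0.26, 95% interval -0.75 to 0.59). Car9, a carbonic anhydrase among the most oxygen-sensitive transcripts, and Adm, the vasoactive peptide adrenomedullin, stayed under 4.27 on all 4 arrays, a signal that 75% of transcript clusters do not reach.

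Bnip3 and Bnip3l, which mark mitochondria for removal, differed by -0.40 (SE 0.18) and 0.26 (SE 0.31), and by 0.01 for the own-region cluster of Bnip3l. Bnip3 had signals of 6.83 and 6.66 against 6.35 and 6.33, without overlap. P4ha1 and P4ha2, subunits of the enzyme that hydroxylates collagen, differed by -0.06 and 0.22. The P4ha2 signals lay under 4.27 on every array but Cre replicate 1 (4.84). P4ha2 differed by 0.67 within the replicate 1 and by -0.23 within the replicate 2 arrays, the same order as the mesenchyme markers, whose medians were 3.44 and 1.01. The part of those cells in the P4ha2 values was not tested.

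Among genes that sense oxygen or feed back on the response, 0 of 6 were 1.5-fold apart within both replicate numbers, while Egln3 and Ankrd37 were lower past that fold in the replicate 2 arrays alone. Egln1 and Egln3, the prolyl hydroxylases that mark HIF for degradation and are themselves induced by it, differed by -0.18 (SE 0.28) and -0.48 (SE 0.33). Egln3 differed by -0.26 and -0.70 by replicate number, and by -0.86 without Cre replicate 1 and -0.08 without Cre replicate 2. Ankrd37, a small HIF target, had the smallest p of this group. Its signals were 4.13 and 4.74 against 3.86 and 4.10, a difference of -0.45 (SE 0.25, 95% interval -1.12 to 0.21, adjusted p = 0.626), or -0.27 and -0.63 by replicate number. All of these signals but the 4.74 lay under 4.27, the signal that 75% of transcript clusters do not reach. The groups did not overlap, and the difference was -0.75 without control replicate 1 and -0.16 without control replicate 2. Ddit4, an inhibitor of mTORC1 induced by hypoxia and by other stress, differed by 0.24 (SE 0.25). Mxi1, which opposes Myc, and the histone demethylase gene Kdm3a differed by 0.12 and -0.01.

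Counted over all members, 18 of 36 were lower within both replicate numbers by any amount, against 32.1% of all genes and 34.9% of genes at or above the median signal. Of the 31 members at or above that median, 17 were. Another 9 members were higher within both, against 31% of all genes. The 2 genotypes did not overlap in 12 members that were lower and 4 that were higher, against 20.9% and 20.6% of all genes. Within the replicate 2 arrays alone, where markers of tissue around the retina differed less, 7 members were at least 1.5-fold lower, against 6.35% of all genes. Within the replicate 1 arrays alone 5 were, against 5.08%, and 2 were at least 1.5-fold higher (Slc2a3 and P4ha2), against 7.2%. With a smaller log2 threshold of 0.32 within both replicate numbers, 8 members were lower and 3 higher, against 6.81% and 6.71% of all genes. At 2-fold 1 was lower (Ndrg1), against 0.894%.

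Other genes of the pathway and its surroundings were read from lists by the same rule of 1.5-fold within both replicate numbers. Of all genes, 2.97% were lower and 2.87% higher by that rule. Among 12 regulators of HIF, 0 qualified in either direction. Hif1a, the oxygen-regulated subunit, had signals of 8.14 and 8.06 in the control and 7.76 and 7.56 in the Cre arrays, a difference of -0.45 (SE 0.20, adjusted p = 0.516). Epas1, the related HIF-2 alpha gene of vessels, differed by 0.71, or by 1.11 and 0.30 by replicate number, beside endothelial marker medians of 1.34 and 0.56, whose part in it was not tested. Of 32 further genes known to be induced by hypoxia, 3 were higher and 0 lower, and the list median was 0.16. The 3 were the circadian and stress repressors Bhlhe40 (1.15) and Bhlhe41 (1.01) and the heme oxygenase gene Hmox1 (0.84). Bhlhe40 had signals of 3.32 and 3.30 against 4.60 and 4.32, and the control signals of Bhlhe41 were 4.03 and 4.11 and those of Hmox1 4.40 and 4.22. All of these control signals but the 4.40 lay under 4.27. By replicate number Bhlhe40 differed by 1.27 and 1.02, Bhlhe41 by 1.32 and 0.70 and Hmox1 by 0.88 and 0.81. Macrophage markers (8 of 8 measured) had medians of 0.41 and 0.57 by replicate number. Several other marker lists were above 0 too, with medians of 1.34 and 0.56 (endothelial), 1.02 and 0.30 (red blood cells), 2.20 and 0.34 (pigment epithelium) and 3.44 and 1.01 (mesenchyme). The part of a different mix of cells in the values of these 3 genes was not tested.

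Of 12 tissue-restricted relatives of the glycolytic genes, 1 was lower and 0 higher. This was Hkdc1, a hexokinase-like gene, with signals of 4.07 and 4.06 against 3.08 and 3.04, a difference of -1.01 (adjusted p = 0.0997). All 4 signals lay below 4.27. Of 18 genes of the tricarboxylic acid cycle, 1 was lower, Suclg2, a subunit of succinyl-CoA synthetase, with a difference of -0.78 (-0.84 and -0.71 by replicate number). None of 16 genes of the respiratory chain and ATP synthase qualified, with Uqcrfs1 (-0.44) and Atp5c1 (-0.34) the furthest from 0. None of 11 genes of pyruvate entry did either, where Dld differed by 0.32 and Pdhb by 0.29. The medians of these 3 lists were 0.02, -0.04 and 0.08. The pentose phosphate list (6 genes, median -0.11, led by Pgls at -0.67 and Tkt at -0.28) and the stress response list (9 genes, median -0.09, led by Phgdh at 0.38 and Psat1 at -0.25) had 0 qualifying genes. Of 9 genes of the Myc network, 1 qualified. Mycn, the Myc family factor of neural progenitors, had signals of 7.89 and 6.96 against 6.88 and 6.09, a difference of -0.94 (SE 0.43, adjusted p = 0.536).

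Progenitor and cell cycle genes were lower beside the lower members. All 9 measured progenitor markers were lower, 8 of them by the rule, with a median of -1.41 within the replicate 1 and -1.55 within the replicate 2 arrays. They were led by Six6 (-3.67), Fgf15 (-3.53), Rax (-2.17) and Ccnd1 (-1.74). Of 14 cell cycle genes 11 were lower by the rule, with medians of -0.83 and -1.22. Slc2a1, Hk2 and the own-region cluster of Ldha followed the same order by replicate number as the cell cycle median, and Ndrg1, Slc16a3 and the brightest cluster of Ldha the reverse. With 2 replicate numbers only 2 orders are possible, and the share of all genes with either was not computed, so a shared order carries no weight. Retinal neuron markers (11 of 12 measured) had medians of -0.31 and 0.51, beside differences of 0.59 and 0.48 for Slc2a3 and of 0.53 and 0.47 for Ldhb. Markers of hypothalamus and thalamic eminence (8 of 8 measured) had medians of 3.39 and 4.76. How far fewer progenitors or a different mix of cells enters the values of Slc2a1, Slc16a3, Hk2, Ldha, Ndrg1, Slc2a3, Ldhb and Eno2 was not tested.

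Vessels, which both use and respond to Vegfa, were read from 10 endothelial markers. Of these 9 were above 0, 4 by the rule, and 1 was lower. That gene, Kdr, the main Vegfa receptor, was named after its values were seen. Its signals were 9.21 and 8.75 in the control and 8.46 and 7.92 in the Cre arrays, a difference of -0.79 (SE 0.30, adjusted p = 0.451), whereas Tek, another endothelial receptor, differed by 2.01. The control mean of Kdr was 8.98, and those of the other 9 markers ran from 3.31 (Tek) to 5.67 (Cdh5). Which cells the Kdr signal came from was not tested. Markers of red blood cells (6 of 10 measured) had medians of 1.02 and 0.30, and those of muscle (9 of 10 measured) 1.35 and 0.01, beside differences of Aldoa and Pfkm, both abundant in muscle, of -0.29 and 0.22 within the replicate 1 arrays.

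**Figure D5:**
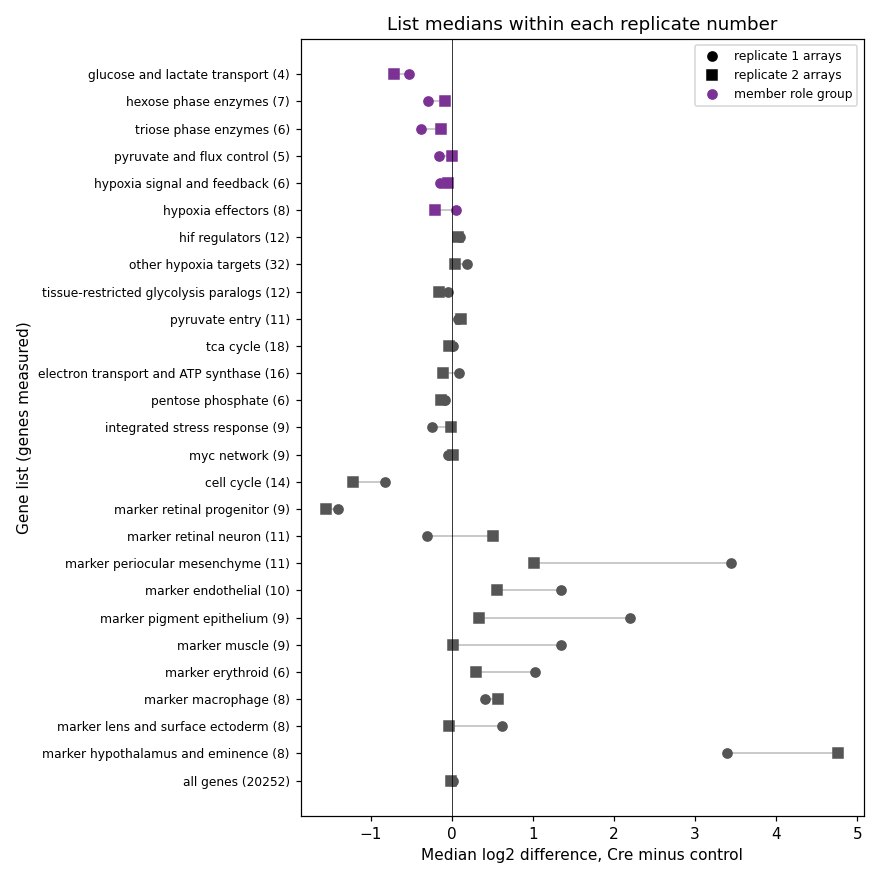
Median log2 difference, Cre minus control (x axis), of each gene list (y axis, with the number of genes measured) within the replicate 1 arrays (circles) and the replicate 2 arrays (squares). Purple marks the role groups of the 36 members. Transport genes lie at -0.53 and -0.72, the lists of mitochondrial metabolism lie near 0, and the mesenchyme and pigment epithelium lists differ most between the replicate numbers.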

How the data were processed

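RNA was labelled with the Affymetrix whole-transcript sense assay after ribosomal RNA reduction, per the labels' protocols. The authors deposited log2 signals for 112205 transcript clusters on 4 arrays. Per the submitters' processing notes, RMA, Partek and the mouse build mm9 were involved, in roles and versions not stated. Of the clusters, 25513 carried 1 gene symbol in the platform annotation, 2290 carried several and 84402 were unnamed here. No read depth exists for arrays, and their number limits the precision.

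Because the deposited arrays did not share a common scale, all clusters were quantile normalized, 1 cluster per gene was taken, and genotypes were compared with limma 3.58.1 (R 4.3.3, intensity trend, genotype as the only term). Adjusted p-values are Benjamini-Hochberg over 20252 genes, with a threshold of 0.05. The fit was also run on simulated arrays with independent noise and no shift between replicate numbers, so that run does not cover the shift seen here. A second, untested description counts genes at least 1.5-fold apart in 1 direction within each replicate number.

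The members, lists and pairs were chosen with earlier results of these data known. Full values are given for members counted by replicate number and for the member of smallest p in each role group. From other lists, up to 4 counted genes are named, or the 2 furthest from 0 where none counted. Through RefSeq synonyms 3 list genes were found. Alternatives covered array scale, cluster choice, dim genes, variance prior, thresholds, the replicate number as a term and each array left out.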

Additional observations from a re-analysis of the deposited data

How the results depend on the processing

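The median of the glycolysis members lay between -0.34 and -0.21 under the alternatives of array scale, cluster choice, dim genes and left-out arrays (-0.14 within the replicate 2 arrays alone), and the hypoxia median between -0.30 (without Cre replicate 1) and 0.07 (without Cre replicate 2). Limma called 0 genes on quantile-normalized values, 415 on the deposited values (158 lower, 257 higher, with 1 member, Ndrg1), 31 with dim genes left out (17 lower, 14 higher) and 73 at an adjusted p of 0.10. With 1 array left out, the counts ran from 0 to 242, and the 242 (15 lower, 227 higher) came without Cre replicate 2, so that the lone Cre replicate 1 array is assumed to vary like the controls. The cause was not tested. Counted by replicate number, 4 members qualified at 1.5-fold, 11 at a log2 threshold of 0.32 (8 lower, 3 higher), 1 at 2-fold, 7 in the replicate 2 arrays alone and 7 in the replicate 1 arrays alone (5 lower, 2 higher). The last 2 counts, like the own-region clusters, were added after the data were seen.

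With only 2 numbers the replicate numbers were not taken as pairing. The difference between replicates 1 and 2 correlated between genotypes at 0.453 over genes and 0.86 over members, and with the replicate block limma called 0 genes (3152 at an unadjusted p under 0.05, among them 11 members).

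With 1 array left out, 27 of 36 members moved by over 1.5 times or changed sign, and the other 9 (Ndrg1, Slc2a1, Slc2a3, Slc16a1, Hk2, Ldha, Aldoa, Mxi1 and Bnip3) did not. Leaving 1 array out also unbalances the replicate numbers, so these moves include any shift between the numbers. Hk1 (0.24 and 0.49) and Ldhb (0.53 and 0.47), which moved, kept their sign within both replicate numbers. Small differences changed sign. With array medians centred, Kdm3a was at 0.08 and Vegfa and P4ha1 at 0.00. With quantiles over the tested genes only, Pfkfb4 was at -0.04 and Kdm3a at 0.00. With own-region clusters Hk1 was at -0.01. With 1 array left out, differences ran from -0.49 to 1.20 for Hk1, -0.09 to 0.37 for Aldoc, -0.51 to 0.20 for Gapdh, -0.88 to 0.03 for Pgk1, -1.27 to 0.63 for Pgam1, -0.86 to 0.01 for Pdk1, -0.39 to 0.05 for Pfkfb3, -0.12 to 0.23 for Pfkfb4, -0.44 to 0.07 for Egln1, -0.01 to 0.49 for Ddit4, -0.20 to 0.19 for Kdm3a, -0.37 to 0.22 for Vegfa, -0.41 to 0.28 for P4ha1 and -0.27 to 0.74 for P4ha2.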
